A study of Mus musculus with 10 samples.

Results

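The regions described here are the 2114 accessible-chromatin peaks of mouse chromosome 5 whose read counts sum to at least 100 over all 10 libraries. They were selected on that sum, which takes no account of which library a count came from, out of 3895 peaks on chromosome 5 and 61571 peaks on the nuclear chromosomes. The same sum was reached by 32084 peaks of other chromosomes. Members span bases 3342174 to 151687177 of the mm10 assembly and are 60 to 1388 bases wide, with a median of 275.5. Cut into fixed windows of 1 Mb, numbered from the start of the chromosome, they occupy 105 of 152 windows and leave 47 empty. A window held 1 to 72 members, with a median of 16; 7 windows held a single member, and 26 windows with more than 30 members held 1150 of them. At the threshold, 15 members had a sum of exactly 100, among them peaks nearest to Galnt11 (53 counts in KO and 47 in WT libraries) and Rasl11b (33 in KO and 67 in WT). Just outside it, 27 peaks had a sum of 99, among them peaks nearest to Abcb4 (57 counts in KO and 42 in WT libraries), Agap3 (46 in KO and 53 in WT) and Tnip2 (39 in KO and 60 in WT).

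The assay was ATAC-seq on sorted naive CD4 T cells, gated as CD3+CD4+CD25-CD44low/-CD62L+ from mouse spleen and lymph node, with 60000 cells per library. All animals carried Satb1fl/fl and CD4-CreERT2wt/+, that is, floxed Satb1 alleles and 1 copy of a Cre recombinase that tamoxifen activates in cells expressing Cd4. The 5 KO libraries (Sample_2268_KO to Sample_2272_KO) came from tamoxifen-treated mice, and the 5 WT libraries (Sample_2273_WT to Sample_2277_WT) from untreated mice of the same genotype; values per library are given in this order throughout. The comparison asks how loss of Satb1 alters chromatin accessibility in naive cells. Tamoxifen exposure, Cre activity and Satb1 deletion coincide in these groups and cannot be told apart. Whether the libraries represent separate animals is not stated in the labels, and a p-value here speaks of the spread among libraries. In bulk samples, fewer cells of a type and less open chromatin per cell cannot be told apart.

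In ATAC-seq a transposase inserts sequencing adapters into DNA that nucleosomes leave exposed, so a peak marks a promoter, an enhancer or another open element, and its read count rises with the share of cells and alleles that are open there. SATB1 is a chromatin organiser of thymocytes and T cells that binds AT-rich DNA and tethers distant elements. Mouse chromosome 5 carries, among others, the transcription factor genes Klf3 and Hopx, a cluster of CXC chemokine genes, a cluster of guanylate-binding protein genes and the Gtf2i and Gtf2ird1 pair.

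Between KO and WT, 78 members passed (edgeR quasi-likelihood test, Benjamini-Hochberg adjusted p under 0.05), or 3.75% of those tested, beside 3.89% of all tested peaks. Of these 78, 2 covered an annotated transcription start site, against 570 of 2004 tested members that did not pass: that of Yes1 in a peak that fell and that of Rnf216 in a peak that rose. Their promoters are shown because they are the called members that lie on a start site. Both are RefSeq windows of 300 bases on GRCm38.p6, 250 before the start and 50 after it, written 5′ to 3′ on the strand of the gene, with the bases covered by the called peak in capitals. The Yes1 window is chr5:32610921-32611220 on the plus strand and the Rnf216 window is chr5:143112971-143113270 on the minus strand.
Yes1: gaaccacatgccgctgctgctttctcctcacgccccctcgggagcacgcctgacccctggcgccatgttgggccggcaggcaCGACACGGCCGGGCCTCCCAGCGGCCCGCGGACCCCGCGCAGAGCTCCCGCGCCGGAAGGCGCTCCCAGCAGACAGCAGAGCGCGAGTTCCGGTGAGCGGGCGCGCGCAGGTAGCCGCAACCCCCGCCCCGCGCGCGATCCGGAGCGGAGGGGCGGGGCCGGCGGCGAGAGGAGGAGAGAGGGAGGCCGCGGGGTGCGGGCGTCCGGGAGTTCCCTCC
Rnf216: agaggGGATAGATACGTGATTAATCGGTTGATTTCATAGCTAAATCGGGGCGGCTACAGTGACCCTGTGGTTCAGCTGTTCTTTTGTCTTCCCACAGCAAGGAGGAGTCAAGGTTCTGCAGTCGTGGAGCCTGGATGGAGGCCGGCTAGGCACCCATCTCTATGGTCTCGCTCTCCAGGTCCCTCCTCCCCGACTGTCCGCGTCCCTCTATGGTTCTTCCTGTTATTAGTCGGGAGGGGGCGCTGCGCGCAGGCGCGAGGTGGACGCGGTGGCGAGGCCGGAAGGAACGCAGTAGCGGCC
The peak that fell covers the 218 bases from position 83 of the Yes1 window to its end, and the peak that rose covers 295 bases of the Rnf216 window. A and T make up 23% of the Yes1 window and 40.3% of the Rnf216 window, against a median of 47.3% over 32851 RefSeq promoter windows, whose quartiles are 38.3% and 54.3%. Motifs were searched on both strands, with positions counted from the 5′ end of the printed window, and no match overlapped another. A match is a description of the letters and not a binding site. The ETS motif CCGGAAG occurs at position 135 of the Yes1 window and at position 278 of the Rnf216 window, in capitals both times, and in 8.86% of all promoter windows. The RUNX motif TGTGGT occurs at position 66 of the Rnf216 window and, on the reverse strand, at position 3 of the Yes1 window outside the peak; 16.8% of all windows hold it. The SP/KLF motif GGGCGGG occurs at positions 205 (reverse strand) and 233 of the Yes1 window and in 25.6% of all windows. The letters of the AP-1 motif TGANTCA (7.81% of all windows) and of the TCF/LEF motif CTTTGAT (3.73%) are in neither window.

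Counts in nuclear peaks totalled 660107 to 2167685 in KO libraries and 1009853 to 2063791 in WT libraries, and a member held a median of 10 to 37 counts per library. At the targeted gene Satb1, on chromosome 17, 26 peaks lay in or nearest to the gene, of which 16 were tested, 4 rose and 0 fell (edgeR; 1 of the others was lower at an unadjusted p under 0.05), and they summed to 417 to 451 CPM (counts scaled to a common library size) in KO and 358 to 399 CPM in WT libraries. The labels do not say which bases were floxed, so these peaks do not check the deletion. Promoter peaks of 8 of 8 CD4 T cell markers (Cd3e, Cd4, Lck and others) summed to 406 to 437 CPM in KO and 418 to 460 CPM in WT libraries. None of 7 B cell markers had a promoter peak, and Cd8a, Csf1r, Spi1, Lyz2, Gata1 and Ncr1 had none. Promoter peaks of the remaining markers summed to 20.3 to 47.6 CPM in KO and 29.8 to 47.7 CPM in WT libraries for myeloid cells (4 of 7 markers), 22.7 to 39.0 CPM in KO and 23.9 to 33.6 CPM in WT for NK cells (2 of 5), and 20.5 to 32.2 CPM in KO and 24.1 to 30.9 CPM in WT for CD8 T cells (1 of 2). They summed to 67.4 to 91.8 CPM in KO and 67.2 to 77.4 CPM in WT libraries for erythroid cells (2 of 4), and 95.8 to 139 CPM in KO and 104 to 115 CPM in WT for stromal and endothelial cells (3 of 5). These sums overlapped between KO and WT in every list, and their part in the results was not tested. In each group, 4 of 10 pairs of libraries differed by no more than the sampling noise of their counts; the libraries are counted singly here. Libraries linked by such pairs were also summed (2 KO against 2 WT). The links form chains: Sample_2268_KO and Sample_2272_KO were summed through Sample_2270_KO, although their own pair differed beyond sampling noise (chi-square test, p = 1.57e-08). Among single peaks, 34 rises and 17 falls passed, beside 899 and 163 of 55752 over all chromosomes. Over all members, window 72 was the only window of chromosome 5 called, beside 32 higher and 4 lower of 1901 over all chromosomes.

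Along its length, chromosome 5 showed few windows that differed as a whole. Of 105 windows tested, 3 rose and 1 fell in KO libraries (edgeR quasi-likelihood test on counts summed per window, fitted over the windows of all chromosomes, Benjamini-Hochberg adjusted p under 0.05). Over all chromosomes 5.58% of 1899 windows passed, 4.42% higher and 1.16% lower, so the 3.81% on chromosome 5 is no larger than the background. Small values below 0 were the more frequent: 39 windows had a log2 fold change of KO over WT above 0 and 66 below 0, with a median of -0.02, against 941 above and 958 below over all windows. The groups were separated, with no overlap, in 9 windows, 3 with KO above WT (windows 9, 72 and 97) and 6 with KO below WT (windows 36, 75, 90, 118, 140 and 148), and in 5.58% of all windows.

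**Figure D1:**
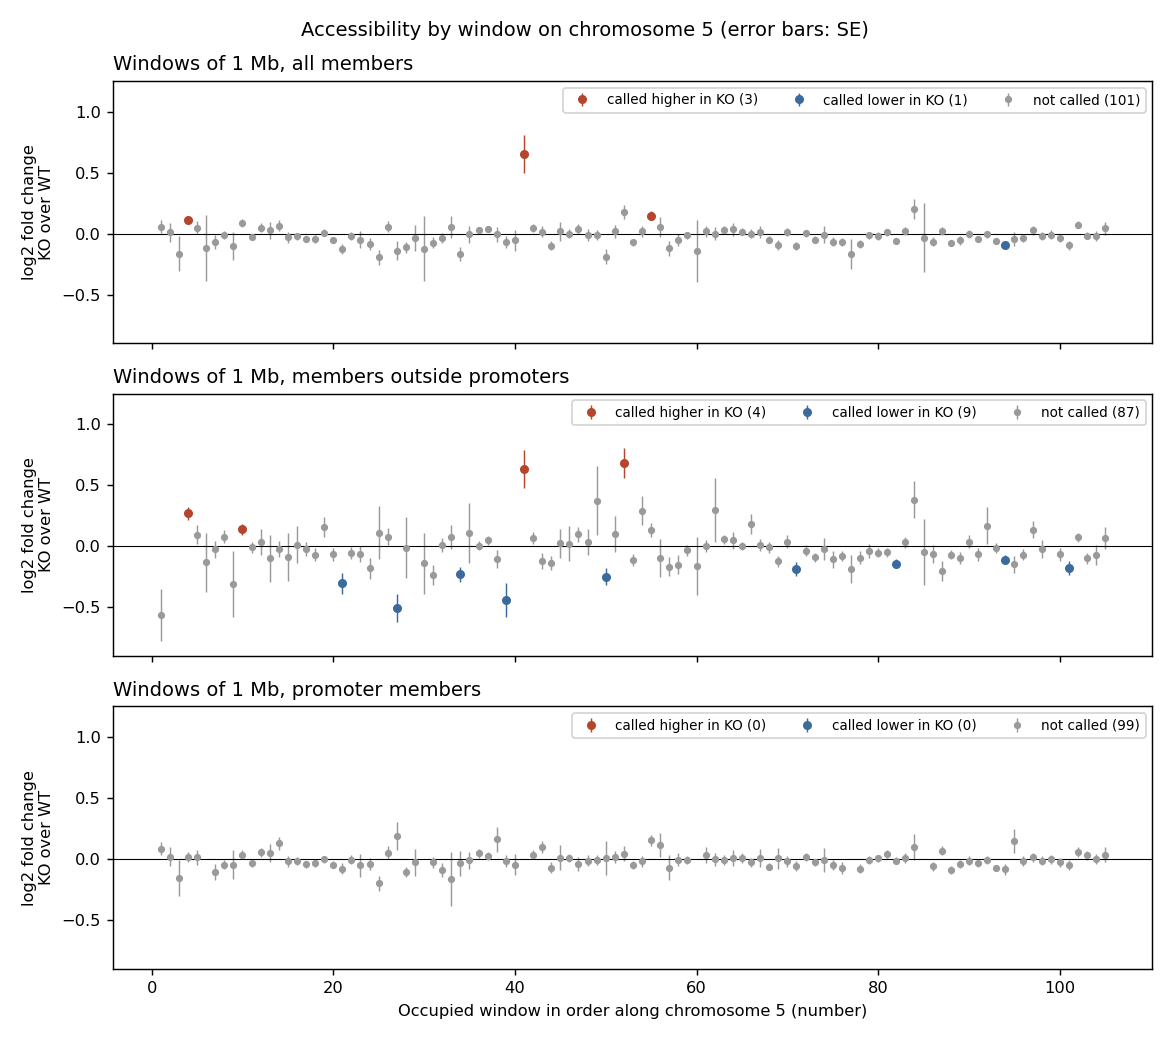
Log2 fold change of KO over WT (y axis, with SE bars) for each 1 Mb window in order along chromosome 5 (x axis, rank among the 105 occupied windows), for all members, for members outside promoters and for promoter members. Coloured points passed the edgeR test: 3 higher and 1 lower for all members, 4 higher and 9 lower outside promoters, and 0 in promoters.

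The largest window change was that of window 72 (bases 71000001 to 72000000), which holds 1 member, an intronic peak of Gabrb1 (chr5:71903464-71903755), the gene of a GABA receptor subunit. It had 29.6, 26.1, 30.01, 31.3 and 25.2 CPM in KO libraries, against 16.5, 20.5, 17.3, 13.6 and 21.3 CPM in WT libraries. The lowest KO library exceeded the highest WT library, and the log2 fold change was 0.65 ± 0.16 (SE; edgeR adjusted p = 0.00936). Without library Sample_2271_KO the adjusted p was 0.0521, and DESeq2 gave 0.0592.

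Window 97 (bases 96000001 to 97000000) holds 23 members at Cnot6l, the gene of a catalytic subunit of the CCR4-NOT mRNA deadenylase, Mrpl1, Gm8013 and Bmp2k. The window had 499.99, 494, 497, 496 and 514 CPM in KO libraries, against 487, 454, 445, 448 and 442 CPM in WT libraries. The KO libraries lay in a narrow band above the WT libraries, of which Sample_2273_WT was highest, and the window rose by 0.15 ± 0.04 on the log2 scale (SE; edgeR adjusted p = 0.0124). Of its members, 2 peaks nearest to Cnot6l rose. The promoter-class peak chr5:96164103-96164364 had 39.8, 26.4, 30.5, 32.97 and 35.5 CPM in KO libraries, against 24.2, 22.4, 23.9, 21.03 and 23.97 CPM in WT libraries, without overlap (log2 fold change 0.55 ± 0.14, edgeR adjusted p = 0.0068; 0.0550 without Sample_2268_KO and 0.163 in DESeq2). The distal peak chr5:96176183-96176425 had a log2 fold change of 0.68 ± 0.21 (edgeR adjusted p = 0.0479; 0.352 in DESeq2), a call that held without Sample_2269_KO, Sample_2274_WT or Sample_2277_WT and not without any of the other 7 libraries (0.0718 to 0.216). The window's call was lost without library Sample_2272_KO (adjusted p 0.0657), and without the called members it was 0.263.

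Window 9 (bases 8000001 to 9000000) holds 21 members around Abcb1a and Abcb1b, the genes of the P-glycoprotein drug efflux pumps, and averaged 594 ± 7.13 CPM in KO and 550.2 ± 22.1 CPM in WT libraries (SD, n = 5 each). It had 594, 591, 602, 600.1 and 584 CPM in KO libraries, against 561, 526, 543, 539 and 583 CPM in WT libraries. The lowest KO library lay just above the highest WT library, Sample_2277_WT, and the log2 fold change was 0.11 ± 0.03 (SE; edgeR adjusted p = 0.0458). The call was the least stable of the 4: of the 10 fits without 1 library it stood only without Sample_2277_WT, and the other 9 gave adjusted p of 0.0574 (without Sample_2269_KO) to 0.127 (without Sample_2271_KO). The member with the largest change, chr5:8807189-8807642 in an intron of Abcb1b with Gm5106 as nearest start site, had 38.2, 45.4, 45.7, 36.2 and 44.1 CPM in KO libraries, against 15.4, 19.1, 15.4, 14.5 and 19.9 CPM in WT libraries. Every KO library was above every WT library, at 2.41-fold (log2 fold change 1.27 ± 0.14, edgeR adjusted p = 6.27e-11). The distal peak chr5:8652213-8652473 near Abcb1a also rose, by 1.06 ± 0.27 (edgeR adjusted p = 0.00734; 0.0970 without Sample_2272_KO and 0.131 in DESeq2). Without these 2 members the window's adjusted p was 0.645.

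Window 141 (bases 140000001 to 141000000) fell in KO libraries and holds 52 members, among them promoter peaks of Brat1, Gna12, Chst12, Eif3b and Ttyh3. It had 1502, 1444, 1460.3, 1444 and 1426 CPM in KO libraries, against 1500.4, 1546, 1496, 1605 and 1593 CPM in WT libraries. Sample_2268_KO lay among the WT libraries and the other 4 KO libraries below all of them, and the log2 fold change was -0.09 ± 0.03 (SE; edgeR adjusted p = 0.0369). The call was lost without Sample_2270_KO (adjusted p 0.0544), Sample_2271_KO (0.101), Sample_2272_KO (0.136), Sample_2274_WT (0.0573), Sample_2276_WT (0.0969) or Sample_2277_WT (0.0898), and in DESeq2 (0.0731). Within the window the called members pointed both ways. An intronic peak of Mad1l1, which encodes a spindle checkpoint protein, fell (chr5:140215412-140216100; 21.9, 23.2, 27.1, 28.6 and 25.3 CPM in KO libraries, against 42.98, 49.4, 48.3, 42.1 and 43.8 CPM in WT libraries). KO and WT libraries did not overlap, and the fold was 0.557 (log2 fold change -0.85 ± 0.12, edgeR adjusted p = 2.96e-07). An intronic peak of Gna12, which encodes a G protein alpha subunit, rose (chr5:140771575-140771841, nearest start site that of Amz1; 13.8, 15.8, 8.46, 15.1 and 15.2 CPM in KO libraries, against 5.51, 5.05, 3.71, 4.35 and 4.79 CPM in WT libraries). The KO values were all above the WT values, with Sample_2270_KO lowest among them, and the fold was 3.10 (log2 fold change 1.63 ± 0.26, edgeR adjusted p = 2.32e-06). A second Gna12 peak, exonic (chr5:140762608-140762818), had a log2 fold change of 0.85 ± 0.27 (edgeR adjusted p = 0.0463; 0.437 in DESeq2 and 0.0966 in limma-voom), a call that held without Sample_2268_KO or Sample_2269_KO and not without any of the other 8 libraries (0.0518 to 0.387).

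**Figure D2:**
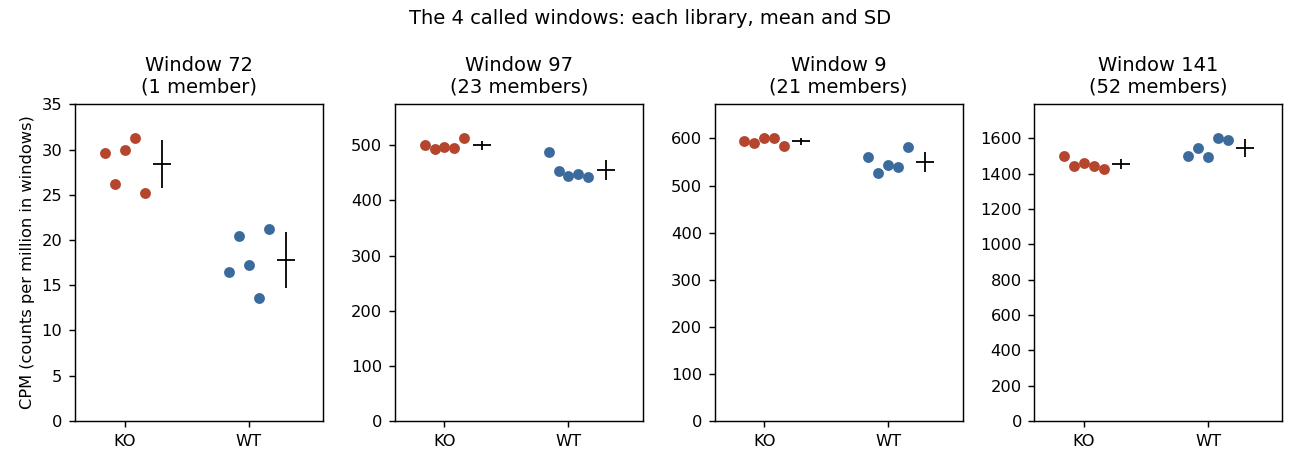
CPM of the 4 called windows (y axes, from 0) in each KO library (left, red) and WT library (right, blue), with the mean and SD as a bar beside the points. Windows 72, 97 and 9 had all KO points above all WT points, and in window 141 Sample_2268_KO lies among the WT points.

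The windows with most members did not pass. Window 123 (72 members) averaged 2023 ± 111 CPM in KO and 2044 ± 50.3 CPM in WT libraries (SD, n = 5 each), window 125 (67 members) 1903 ± 71.96 CPM in KO and 1979.8 ± 49.1 CPM in WT libraries (SD, n = 5 each), and window 108 (62 members) 1324 ± 42.8 CPM in KO and 1307 ± 47.4 CPM in WT libraries (SD, n = 5 each), with edgeR adjusted p of 0.807, 0.216 and 0.865. Among windows of at least 5 members, the lowest value was that of window 42 at Rab28 and Bod1l, with a log2 fold change of -0.19 ± 0.06 (edgeR adjusted p = 0.0594), and the highest that of window 92 at Thap6 and Btc, with 0.18 ± 0.06 (edgeR adjusted p = 0.0606). Neither passed, although window 42 did without Sample_2274_WT (0.0270) or Sample_2275_WT (0.0263) and window 92 did without Sample_2269_KO (0.0345). Window 125 also passed without Sample_2269_KO, as a fall (log2 fold change -0.08, edgeR adjusted p = 0.0409).

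How many windows passed depended on the tool and on where the borders fell. DESeq2 called 0 of the 105 windows, beside 43 higher and 6 lower of 1899 over all chromosomes. The same 4 windows as in edgeR were called by limma-voom, beside 90 higher and 23 lower over all chromosomes. Windows of 2 Mb gave 2 higher and 1 lower of 60, beside 46 and 9 of 1120 over all chromosomes. Those of 500 kb gave 4 higher and 4 lower of 180, beside 124 and 38 of 3120. Windows shifted by 500 kb gave 1 higher and 5 lower of 108, beside 75 and 22 of 1903. At 5 Mb 0 of 28 passed, beside 15 and 4 of 516. The fall with the smallest adjusted p after shifting was that of bases 102500001 to 103500000, with a log2 fold change of -0.49 (edgeR adjusted p = 0.00133), which holds the called distal peak near Ptpn13. With the called peaks left out, 0 of 104 windows of chromosome 5 passed, beside 6 higher and 0 lower of 1897 over all chromosomes. All 3 of the called windows that still had members kept their direction. The peaks left out were chosen by their calls in these same data, so fewer calls follow from the choice.

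Members outside promoters and members in promoters differed in how often their windows passed. Windows summed over the 1108 members outside promoters passed in 13 of 100 cases, 4 higher and 9 lower, against 12.2% of all such windows over the genome (133 higher and 71 lower of 1673; edgeR). With limma-voom all 13 passed, and with DESeq2 5 of them did, windows 9, 72 and 92 with KO above WT and 45 and 125 with KO below, while the other 8 had adjusted p of 0.0636 to 0.115. With libraries linked by pairs within sampling noise merged, 3 higher and 1 lower passed, beside 52 and 17 of 1682 over all chromosomes. Windows summed over the 1006 promoter members passed in 0 of 99 cases by edgeR, DESeq2 and limma-voom, with 7, 5 and 7 windows at an unadjusted p under 0.05, against 0.673% of all promoter windows by edgeR. The windows outside promoters with KO above WT were 9, 24, 72 and 92, and those with KO below WT were 36, 45, 63, 68, 90, 114, 125, 141 and 148. Across the 94 windows with both kinds of members, the log2 fold changes in and outside promoters were hardly related (Pearson r = -0.01, Spearman rho = 0.19, as a description; the points share libraries and depth), although 62 of the 94 had the same sign, 40 of them below 0.

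The largest rise outside promoters was that of window 92 (bases 91000001 to 92000000; 4 members). It had 112, 125, 130.1, 166 and 143 CPM in KO libraries, against 93.2, 85.98, 72.3, 89.9 and 101 CPM in WT libraries, where the CPM refer to counts outside promoters only. No KO library overlapped a WT library, and the log2 fold change was 0.68 ± 0.13 (edgeR adjusted p = 1.77e-04). It includes the member with the largest fold among called members, chr5:91947018-91947334, with Thap6, the gene of a THAP zinc finger protein, as nearest start site. That peak, in the downstream class of the deposited annotation, had 17.9, 22.2, 25.4, 26.5 and 26.4 CPM in KO libraries, against 3.31, 3.36, 3.18, 5.80 and 2.74 CPM in WT libraries. No WT library exceeded 5.80 CPM and no KO library was below 17.9 CPM, a 6.49-fold rise (log2 fold change 2.70 ± 0.24, edgeR adjusted p = 1.10e-14). The Thap6 peak is the only called member of window 92, and the window outside promoters was not fitted without it. Over all members, the log2 fold change of window 92 ranged from 0.03 to 0.33 across the alternative settings. CPM of single peaks and of windows are scaled to different totals and cannot be set side by side.

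The largest fall that passed outside promoters was that of window 45 (bases 44000001 to 45000000; 3 members), which includes a called intronic peak of Tapt1. It had 98.2, 94.9, 106, 115 and 99.97 CPM in KO libraries, against 145, 129, 157, 148 and 159 CPM in WT libraries. All KO libraries were below all WT libraries, with a log2 fold change of -0.50 ± 0.11 (edgeR adjusted p = 0.00167), and the call held without each library in turn. Window 125 (bases 124000001 to 125000000; 39 members, with called falls at Abcb9, Zfp664 and Rflna) had 1971, 2102, 1845, 1995 and 2108 CPM in KO libraries, against 2198, 2229, 2366, 2204 and 2109.97 CPM in WT libraries. The highest KO library lay just below the lowest WT library, Sample_2277_WT, and the log2 fold change was -0.14 ± 0.04 (edgeR adjusted p = 0.00776), again kept without each library in turn. The other falls ranged in log2 fold change from -0.44 (window 68) to -0.11 (window 141). Besides windows 45 and 125, only windows 9, 72 and 92 kept the call without each library in turn. It was lost in window 36 without Sample_2274_WT (adjusted p 0.0503), in window 63 without Sample_2272_KO (0.143), in window 90 without Sample_2272_KO (0.0631), and in window 68 without Sample_2268_KO, Sample_2273_WT, Sample_2274_WT or Sample_2276_WT (0.0555 to 0.0831). It was also lost in window 148 without Sample_2268_KO, Sample_2270_KO or Sample_2274_WT (0.0513 to 0.0890), in window 114 without Sample_2268_KO, Sample_2270_KO, Sample_2275_WT or Sample_2276_WT (0.0539 to 0.111), in window 141 without Sample_2268_KO, Sample_2270_KO, Sample_2271_KO, Sample_2274_WT, Sample_2275_WT or Sample_2277_WT (0.0528 to 0.103) and in window 24 without Sample_2268_KO, Sample_2269_KO, Sample_2270_KO, Sample_2275_WT, Sample_2276_WT or Sample_2277_WT (0.0623 to 0.114).

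As a whole, chromosome 5 held a slightly smaller share of the accessible reads outside promoters in KO libraries. Its non-promoter members held 5.96, 5.95, 5.90, 6.01 and 6.004% of the counts in non-promoter members of all chromosomes in KO libraries, against 6.11, 6.11, 6.15, 6.11 and 6.11% in WT libraries. The groups did not overlap, with means of 5.96 ± 0.045% in KO and 6.12 ± 0.017% in WT libraries (SD, n = 5 each; two-sided exact permutation test, p = 0.00794, the smallest that 252 assignments allow; 0.0417 after Benjamini-Hochberg adjustment over 21 chromosomes). Of the 21 chromosomes, 4 had groups that did not overlap: chromosomes 5 and 15 with a smaller share in KO libraries and chromosomes 3 and 10 with a larger one. All 4 had that smallest p, and its adjusted value depends on how many chromosomes reach it. Over members in and outside promoters, 3 chromosomes reached it, and the same exact permutation p became 0.0556 after adjustment. Shares of all chromosomes sum to 100%, so a rise elsewhere lowers the share of chromosome 5. Without called peaks the shares were 6.05 ± 0.046% in KO and 6.12 ± 0.016% in WT libraries (SD, n = 5 each), still without overlap (exact permutation p = 0.00794). Promoter members held 6.50 ± 0.036% of promoter counts in KO and 6.56 ± 0.075% in WT libraries, which overlapped (exact permutation p = 0.151). Over all peaks the chromosome held 6.32 ± 0.028% in KO and 6.41 ± 0.038% in WT libraries (exact permutation p = 0.0159, 0.0667 after adjustment over 21 chromosomes), where Sample_2268_KO and Sample_2274_WT overlap. The share over all peaks was the main comparison, and the share outside promoters was a variant of it. The part of member counts that lay in promoters was 66.2 ± 1.13% in KO and 66.2 ± 1.53% in WT libraries (SD, n = 5 each; exact permutation p = 0.992).

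**Figure D3:**
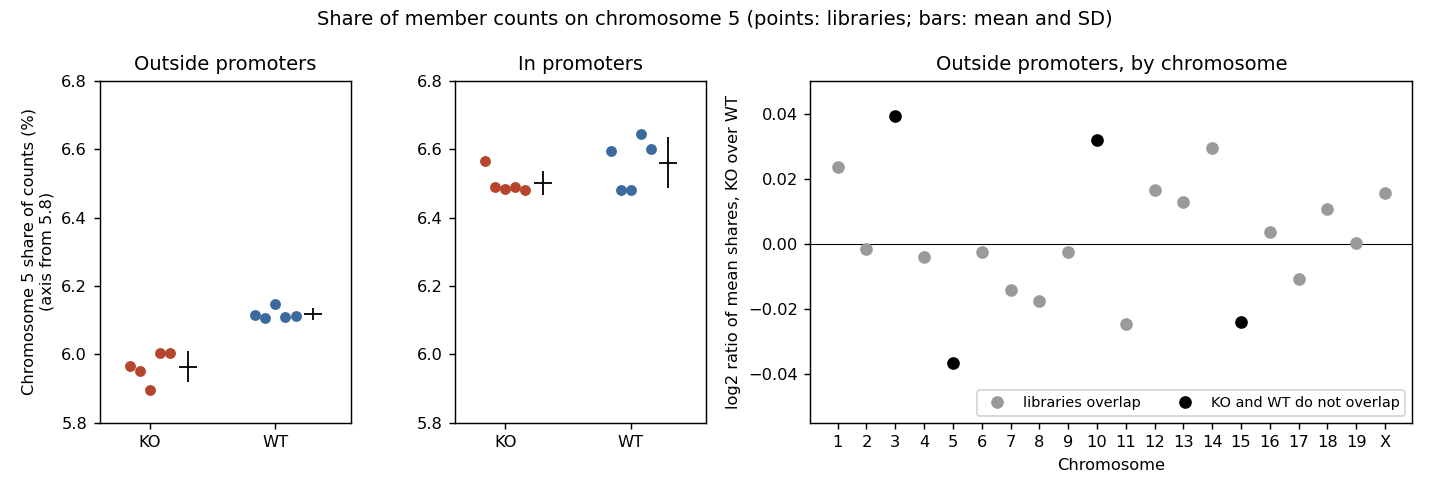
Left and middle, chromosome 5 share of member counts outside and in promoters (y axis in percent, starting at 5.8) in each KO (left, red) and WT library (right, blue), with mean and SD; right, log2 ratio of the mean share of KO over WT outside promoters for each chromosome other than Y. Outside promoters the KO points (highest 6.01%) lie below the WT points (lowest 6.11%), and chromosome 5 is the lowest of the chromosomes shown.

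At the level of single peaks, 78 of the 2082 members that could be tested passed, 46 higher and 32 lower in KO libraries (edgeR adjusted p under 0.05, adjusted over all 34695 tested nuclear peaks); the other 32 members, none with a sum above 121, had counts too low to test. Of all tested peaks, 2.96% rose and 0.928% fell. The split differed in description: 41.0% of the called members fell on chromosome 5, the highest share of any chromosome, against 23.4% of the called members of other chromosomes, with chromosome 6 next at 39.1%. Chromosomes are not replicates and this difference was not tested. DESeq2 called 26 higher and 6 lower (18.8% lower, against 9.90% over all its calls), and limma-voom 44 higher and 25 lower (36.2% against 21.4%). The groups were separated in 73 of 2082 members, 42 with KO above and 31 with KO below WT, or 3.51% beside 3.97% of all tested peaks. Changes of at least 2-fold were rarer among falls, with 3 of 32 falls against 15 of 46 rises. The same held over all tested peaks, with 34 of 322 falls against 381 of 1027 rises. In all 10 fits that left out 1 library, 41 of the 78 calls held (29 higher and 12 lower), and 32 of these also passed in DESeq2 and limma-voom.

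The called members lay mostly away from promoters. Of the peaks that rose 23.9% were in promoters, and of those that fell 18.8%, against 48.9% of the members that did not pass. Their median distance to the nearest start site was 14.6 kb for peaks that rose and 16.8 kb for peaks that fell, against 3.66 kb for members that did not pass. In promoters 11 members rose and 6 fell of 996 tested (1.71%, beside 1.62% of promoter members of other chromosomes). In introns 18 rose and 15 fell of 508 (6.50%, beside 6.66%), and in distal intergenic sites 12 rose and 8 fell of 406 (4.93%, beside 5.92%). The median of peaks that rose was 22.4 CPM in KO and 12.04 CPM in WT libraries, and that of peaks that fell 14.97 CPM in KO and 24.3 CPM in WT libraries. The deposited annotation names the nearest gene of each peak and does not show which gene the peak regulates.

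Among regulators of transcription and chromatin, 31 genes of a list of 42 had 121 members, all tested, of which 4 rose and 1 fell (median log2 fold change 0.00, beside -0.02 over all members). Over all tested members 2.21% rose and 1.54% fell, and no list was tested as a set. In every list a peak counts for the gene of its nearest start site. The called Gtf2ird1 intronic peak nearest to Mir3965, given below, is therefore outside this count. The promoter-class peak of Setd1b (chr5:123141070-123141398), whose product methylates histone H3 as the catalytic subunit of a COMPASS complex, had 43.02, 51.7, 44.01, 39.5 and 40.5 CPM in KO libraries, against 22.04, 21.9, 16.98, 17.4 and 16.4 CPM in WT libraries. All KO libraries were above all WT libraries, at 2.27-fold (log2 fold change 1.18 ± 0.14, edgeR adjusted p = 2.50e-10). A distal peak near Klf3 (chr5:64771762-64771947), which encodes a zinc finger repressor, had 9.74, 14.8, 13.5, 10.3 and 9.12 CPM in KO libraries, against 3.31, 2.80, 5.84, 5.08 and 2.74 CPM in WT libraries. It rose 2.63-fold without overlap (log2 fold change 1.39 ± 0.30, edgeR adjusted p = 6.29e-04). A distal peak near Hopx (chr5:77125115-77125323), which encodes a small homeodomain protein, had 15.4, 11.6, 11.8, 11.9 and 16.2 CPM in KO libraries, against 4.41, 6.17, 4.25, 5.08 and 8.22 CPM in WT libraries. It rose 2.41-fold, again without overlap (log2 fold change 1.27 ± 0.25, edgeR adjusted p = 2.47e-04).

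The neighbouring genes Gtf2i and Gtf2ird1, both of the TFII-I family of transcription factors, showed changes in both directions. A distal peak near Gtf2ird1 (chr5:134482365-134482768) had 37.3, 33.8, 45.7, 30.8 and 32.9 CPM in KO libraries, against 14.3, 15.1, 15.9, 16.7 and 24.7 CPM in WT libraries. KO libraries were higher throughout, Sample_2277_WT being the highest WT library, and the log2 fold change was 0.98 ± 0.15 (edgeR adjusted p = 1.15e-06). An intronic peak of Gtf2ird1, whose nearest start site is that of Mir3965 (chr5:134370782-134371238), had 11.4, 16.9, 16.9, 14.6 and 12.2 CPM in KO libraries, against 22.04, 29.2, 29.2, 26.8 and 18.5 CPM in WT libraries. It fell without overlap, with a log2 fold change of -0.90 ± 0.17 (edgeR adjusted p = 1.65e-04). The promoter-class peak of Gtf2i (chr5:134313515-134314215) also fell, with a log2 fold change of -0.40 ± 0.11 (edgeR adjusted p = 0.0119; 0.0581 without Sample_2271_KO, 0.153 without Sample_2275_WT and 0.204 in DESeq2).

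Among genes of T cell signalling and surface, 31 of 33 listed genes had 151 members, of which 144 were tested. Of these, 2 rose and 4 fell (median log2 fold change -0.06), beside 2.21% and 1.54% of all tested members. A promoter-class peak of Tlr6 (chr5:64959507-64959893), which encodes a Toll-like receptor, had 39.8, 37.99, 44.01, 38.9 and 35.99 CPM in KO libraries, against 25.3, 22.99, 16.5, 24.7 and 21.2 CPM in WT libraries. It rose 1.78-fold without overlap (log2 fold change 0.83 ± 0.14, edgeR adjusted p = 4.10e-06). An intronic peak of Tgfbr3, which encodes the TGF-beta co-receptor betaglycan, rose 2.32-fold (chr5:107261468-107261670; edgeR adjusted p = 0.00419; 0.0873 without the 3 libraries of lowest totals). The largest fall among called members was a distal peak near Ptpn13 (chr5:103367054-103367509), the gene of a protein tyrosine phosphatase, with 13.8, 9.50, 6.77, 11.4 and 11.7 CPM in KO libraries, against 24.2, 33.1, 27.1, 21.8 and 22.6 CPM in WT libraries. The highest KO library was far below the lowest WT library, and the fold was 0.429 (log2 fold change -1.22 ± 0.18, edgeR adjusted p = 4.74e-07). Falls were also found in an intron of Selplg, the gene of the selectin ligand PSGL-1 (log2 fold change -0.55 ± 0.17, edgeR adjusted p = 0.0468; 0.324 in DESeq2 and 0.0625 in limma-voom), and in an exon of P2rx4, the gene of an ATP-gated channel (-0.38 ± 0.12, edgeR adjusted p = 0.0498; 0.505 in DESeq2 and 0.107 in limma-voom). That of Selplg held without Sample_2272_KO or Sample_2274_WT and not without any of the other 8 libraries (0.0529 to 0.197), and leaving out Sample_2269_KO, Sample_2272_KO, Sample_2274_WT or Sample_2275_WT ended that of P2rx4 (0.190 to 0.237).

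For the lists that follow, the shares to set beside the calls are 2.21% higher and 1.54% lower among all tested members. Among all tested peaks they are 2.96% and 0.928%. Genes of the cell cycle and growth (18 of 21 listed, 40 of 42 members tested) had 1 rise and 2 falls. The rise was an intronic peak of Rfc1, the large subunit of the replication factor C clamp loader (chr5:65326206-65326639), with 25.2, 23.2, 33.9, 25.9 and 26.9 CPM in KO libraries, against 18.7, 16.3, 9.55, 16.7 and 16.4 CPM in WT libraries. The groups did not overlap, Sample_2275_WT being the lowest library, and the fold was 1.76 (edgeR adjusted p = 4.62e-04). The falls were the Mad1l1 peak given above and a promoter-class peak of the cyclin G2 gene Ccng2 (log2 fold change -0.54 ± 0.16, edgeR adjusted p = 0.0400; 0.393 in DESeq2 and 0.0732 in limma-voom), a call that held without Sample_2273_WT or Sample_2276_WT and not without any of the other 8 libraries (0.0537 to 0.215). Of interferon-induced GTPases and oligoadenylate synthetases (11 of 19 listed genes, 20 of 21 members tested) 0 rose and 1 fell, a peak near Gbp9 with a fold of 0.543 (edgeR adjusted p = 0.00612; 0.0888 in DESeq2), while peaks near Gbp6 and Gbp8 had folds of 1.22 and 1.27 and did not pass. Cytokines and chemokines (3 of 20 listed genes, 4 members, nearest to Btc, Cxcl10 and Epo) had no call in edgeR, with log2 fold changes from -0.11 to 0.16. Receptor kinases and receptors (3 of 13, 4 members) and housekeeping genes (20 of 22, 61 members) had none either, at -0.17 to 0.37 and -0.36 to 0.60. A called exonic peak of Flt3, given below, is nearest to Urad and lies outside these counts. The most accessible members, the promoters of Tbl2, Abhd11, Limk1, Rita1 and Brat1, did not pass, with folds between 0.844 (Limk1) and 0.973 (Rita1).

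Outside the lists, most of the large rises were intronic or distal. The intronic peak of Dipk1a (chr5:107980039-107980288), which encodes a protein with a divergent kinase domain, had 22.7, 15.8, 18.6, 14.6 and 14.7 CPM in KO libraries, against 2.20, 3.93, 5.31, 0.725 and 3.42 CPM in WT libraries. It was at or below 5.31 CPM in every WT library and rose 4.85-fold (log2 fold change 2.28 ± 0.28, edgeR adjusted p = 1.96e-09). At Tbc1d1, the gene of a Rab GTPase-activating protein, 2 members changed in opposite directions. Its intronic peak chr5:64297132-64297436 had 18.7, 26.4, 22.01, 29.2 and 24.8 CPM in KO libraries, against 7.71, 6.73, 10.6, 9.43 and 8.22 CPM in WT libraries, a 2.86-fold rise without overlap (edgeR adjusted p = 6.17e-09). Its promoter-class peak chr5:64158065-64158201 had 10.6, 3.17, 6.77, 11.4 and 8.11 CPM in KO libraries, against 17.6, 18.5, 15.4, 12.3 and 19.2 CPM in WT libraries, a fall without overlap (log2 fold change -0.93 ± 0.23, edgeR adjusted p = 0.00382; DESeq2 0.0524). A promoter-class peak of Slain2, whose product promotes microtubule growth, rose 2.65-fold (chr5:72916864-72917095; edgeR adjusted p = 6.41e-08), a distal peak near 2210417A02Rik 2.89-fold (edgeR adjusted p = 5.31e-06) and an intronic peak of Tmem243 2.17-fold (edgeR adjusted p = 4.08e-04). Among falls, the intronic peak of Slc4a4 (chr5:89090140-89090529), the gene of a sodium bicarbonate cotransporter, had 8.12, 16.9, 16.9, 18.4 and 14.2 CPM in KO libraries, against 23.1, 29.2, 29.7, 23.9 and 30.8 CPM in WT libraries. It fell without overlap, with Sample_2268_KO lowest (log2 fold change -0.91 ± 0.17, edgeR adjusted p = 7.16e-05). An exonic peak of Flt3 with Urad as nearest start site (chr5:147355049-147355247) was at 0 in Sample_2270_KO, the shallowest library, and averaged 3.66 CPM in KO and 9.83 CPM in WT libraries (fold 0.442, edgeR adjusted p = 0.00928; 0.0867 in DESeq2 and 0.122 without the 3 libraries of lowest totals). Intronic peaks of Bicdl1, which encodes a dynein adaptor, and Fam114a1 (nearest start site that of Mir574) and a promoter-class peak of the ER lectin gene Mlec had folds of 0.515, 0.590 and 0.584 (edgeR adjusted p = 0.00226, 0.0035 and 0.0176; Mlec 0.154 without Sample_2271_KO and 0.195 in DESeq2, Fam114a1 0.0605 in DESeq2).

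The start-site peaks shown at the opening went in opposite directions. The Rnf216 peak (chr5:143112788-143113265), at the promoter of an E3 ubiquitin ligase gene, had 36.5, 36.9, 32.2, 33.5 and 39.5 CPM in KO libraries, against 18.7, 21.3, 20.7, 21.03 and 18.5 CPM in WT libraries. The KO libraries were all higher, at 1.79-fold (log2 fold change 0.84 ± 0.14, edgeR adjusted p = 4.61e-06). The Yes1 peak (chr5:32611003-32611286), at the promoter of a SRC-family kinase gene, had 14.6, 15.8, 8.46, 15.7 and 15.7 CPM in KO libraries, against 20.9, 19.1, 24.9, 23.2 and 34.9 CPM in WT libraries. All KO libraries were below all WT libraries, with Sample_2270_KO lowest and Sample_2277_WT highest, and the fold was 0.604 (log2 fold change -0.73 ± 0.18, edgeR adjusted p = 0.00419; 0.0574 without Sample_2277_WT and 0.0693 in DESeq2). A second Yes1 peak (chr5:32610106-32610571), which ends 431 bases before the first begins and lies upstream of the printed window, had 8.12, 18.997, 10.2, 18.9 and 24.3 CPM in KO libraries, against 6.61, 14.02, 7.96, 7.98 and 10.96 CPM in WT libraries. It rose by 0.84 ± 0.23 on the log2 scale (edgeR adjusted p = 0.0127; 0.239 in DESeq2 and 0.0597 in limma-voom) although the groups overlapped, a call lost without Sample_2271_KO (0.0582), Sample_2272_KO (0.259) or Sample_2275_WT (0.0592).

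**Figure D4:**
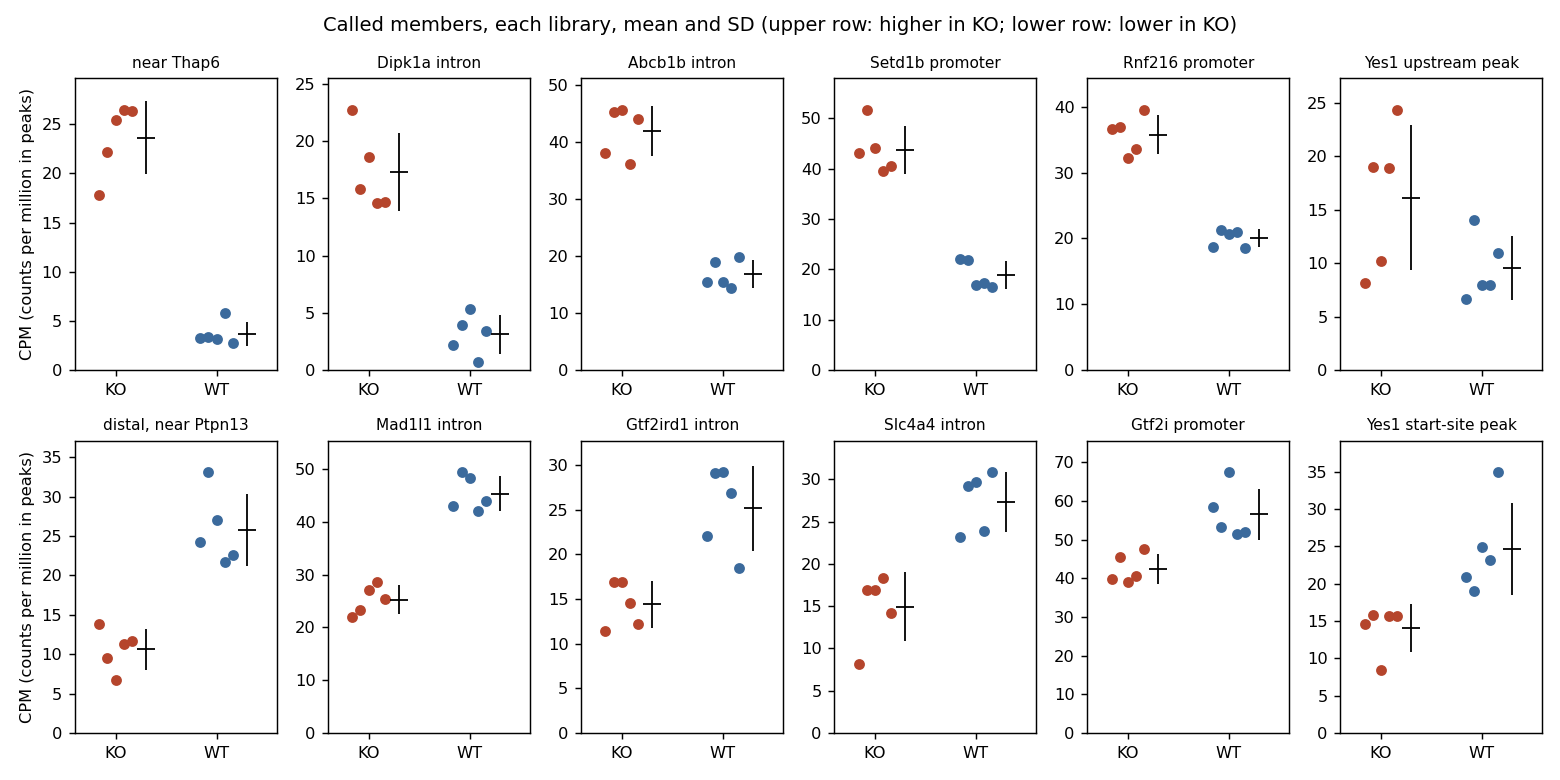
CPM of 12 called members (y axes, from 0) in each KO library (left, red) and WT library (right, blue), with mean and SD; the upper row holds members that rose and the lower row members that fell. The peak near Thap6 had no KO library below 17.9 CPM and no WT library above 5.80 CPM, and the upstream Yes1 peak is the panel where the groups overlap.

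Called members lay in 43 of the 105 occupied windows, of which 21 held only rises, 13 only falls and 9 both. The most in 1 window was 6, in window 66 (bases 65000001 to 66000000), with 5 rises at Fam114a1, Wdr19, Rfc1 and upstream of Chrna9, and 1 fall. The window beside it, 65, held 3 rises (Tbc1d1, Klf3 and Tlr6) and 2 falls (Tbc1d1 and Fam114a1). Neither window passed as a whole, with log2 fold changes of 0.04 ± 0.03 for window 66 and 0.03 ± 0.03 for window 65 (edgeR adjusted p = 0.428 and 0.696). Of 17 pairs of successive called members less than 100 kb apart, 10 had the same direction, 5 of them both higher and 5 both lower, and 7 had opposite directions. With 46 rises and 32 falls among called members, pairs of the same direction also arise between unrelated neighbours. Windows with calls and pairs were not counted on other chromosomes, so these counts have no background and are descriptions. The same-direction pairs included 2 Srpk2 introns (log2 fold changes 0.56 and 0.74), 2 Slc4a4 introns (-0.91 and -0.93), 2 peaks near Gpat3 (-0.57 and -0.72) and 2 near Pptc7 (-0.86 and -0.49). The opposite pairs included the Yes1 peaks, a Slc4a4 intronic fall followed by a rise in the same gene body (-0.93 and 0.89), and 2 Zfp644 introns (0.80 and -0.62).

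By stretches of 10 Mb, the number of rises, which is not scaled to the members tested, was highest in the seventh (bases 60000001 to 70000000; 9 rises and 4 falls of 140 tested) and that of falls in the thirteenth, which also held the most tested members (bases 120000001 to 130000000; 2 rises and 6 falls of 312). The first stretch had 4 rises and 0 falls of 46, the third 3 and 0 of 137 and the eighth 4 and 0 of 84, while the fifth had 0 rises and 2 falls of 26 and the ninth 1 and 2 of 27. The second stretch had no call among 4 tested members, so all calls in the first 3 stretches were rises. Among all tested members 2.21% rose and 1.54% fell, and among all tested peaks 2.96% rose and 0.928% fell. The calls per stretch are few, and differences between stretches were not tested. Outside promoters, 11 of the 16 stretches had a mean below WT in KO libraries and 5 had one above. Only in the first did the groups not overlap, with a mean of 349 CPM in KO and 299.7 CPM in WT libraries and KO above WT. These CPM are on the scale of single peaks. That stretch includes the called Abcb1a, Abcb1b and Tmem243 peaks, and stretches of other chromosomes were not compared. Neighbouring windows were weakly alike in their log2 fold change (Pearson r = 0.12 and Spearman rho = 0.07 over 86 pairs, which share libraries and depth), and the log2 fold change of a window was weakly related to its log2 total count (r = 0.05 over 89 windows of at least 5 members), both given as descriptions.

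**Figure D5:**
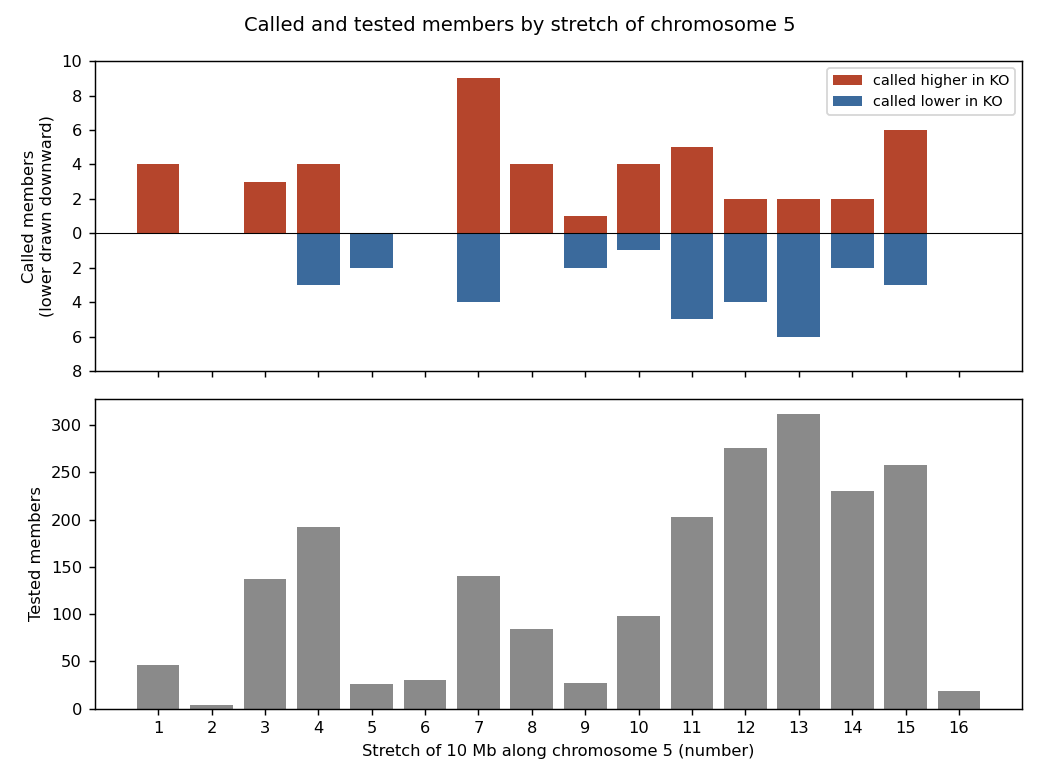
Number of called members (upper panel, rises drawn upward and falls downward) and of tested members (lower panel) in each of the 16 stretches of 10 Mb along chromosome 5 (x axis, stretch number). Stretch 7 holds 9 rises and 4 falls, and stretch 13 holds the most tested members, 312, with 2 rises and 6 falls.

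Peaks of chromosome 5 below the sum of 100 held 2 further calls that are no members, a peak near Acad10 (sum 72; 9.04 CPM in KO and 1.51 CPM in WT libraries) and a peak near 1700123K08Rik (sum 78; 1.56 CPM in KO and 9.10 CPM in WT libraries).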

How the data were processed

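ATAC-seq read counts per peak from 10 libraries (5 KO and 5 WT) were used as the authors deposited them: raw counts over a common peak set, with a nearest-gene annotation. Per the submitters' processing notes, the tools were MACS2 2.1.2 and ChIPseeker 1.18.0, Bowtie2 2.3.5, Trimmomatic 0.36 and bcl2fastq 2.20, with mm10 as the build; DESeq2 1.22.2, R 3.5.3, SAMtools 1.9, Picard and deepTools (3.3.0 and 3.5.2) are listed as well, with no role or order; their settings, any shift of reads for the transposase and the counting program are not given in the sources used here. Reads were single reads of 75 bp, per the labels.

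Counts of nuclear peaks (34695 after edgeR's filterByExpr) were fitted with edgeR 4.0.16 (TMM factors, quasi-likelihood F test, R 4.3.3), KO against WT, with Benjamini-Hochberg adjustment over all tested peaks and a threshold of 0.05. Counts of peaks with a sum of at least 100 were also summed over 1 Mb windows of every chromosome and fitted the same way, in all and by promoter class. A total of 10 non-nuclear peaks, with 0.78 to 1.97% of counts per library, stayed out of library sizes and tests. CPM are counts scaled to a common total over the peaks or windows fitted, with TMM factors. DESeq2 1.42.0 and limma 3.58.1 (voom) were alternatives. Shares were compared by exact permutation tests over 252 assignments (scipy 1.17.1). The procedures were tested on simulated data. Intervals are not given for single counts; errors are SD between libraries or SE of the fit.

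Members, gene lists, windows and tests were chosen with earlier results of these data known. Named peaks were the called members with the largest changes and no overlap between groups, those of called windows, the most accessible members and the members of smallest p in each list. Called members on a start site or of a listed gene, pairs close together and the counts by window and stretch were added after values were seen. The labels' library numbers are shared by no pair of groups. Pairs of libraries were compared by a chi-square test of their counts. Of the called members, 1 fall among the T cell signalling genes is counted but not reported here by name.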

Additional observations from a re-analysis of the deposited data

Results flagged for a closer look

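A library was marked where its gap to the nearest other library of its group exceeded the critical share of the group's range (Dixon's test, 0.71 for 5 libraries). Of 174 groups examined 12 were marked, and chance marks about 1 in 20. Among chromosome shares, Sample_2275_WT had 6.15% of non-promoter counts, and Sample_2268_KO had 6.57% of promoter counts. Among windows, Sample_2273_WT had 487 CPM in window 97, Sample_2269_KO had 2217 CPM in window 123, and Sample_2269_KO had 2031 CPM in window 125. Among single peaks, Sample_2270_KO was the lowest library of its group at the Yes1 start site (8.46 CPM), near Cdkl2 (49.1 CPM), in the Wscd2 intron (6.77 CPM) and in the Gna12 intron nearest to Amz1 (8.46 CPM). Sample_2275_WT was the lowest in the Rfc1 intron (9.55 CPM), Sample_2276_WT the highest near Thap6 (5.80 CPM) and Sample_2277_WT the highest at the distal Gtf2ird1 peak (24.7 CPM). Sample_2270_KO was the shallowest library and carries 4 of the 12 marks; the part of depth in these values was not tested.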

How the results depend on the processing

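No paired analysis was possible because the labels' library numbers are shared by no pair of groups. Over all settings, 1341 values of single named peaks and windows kept their side of the threshold, 204 lost the call and 13 gained it. A reversal was counted only where the main or the alternative fit passed, and there were 0. Values that passed in neither fit could change sign, as in window 108 (log2 fold change -0.0136 to 0.0343). The 46 rises among peaks were 26 with DESeq2 and 11 with counts thinned to the smallest total (38 to 45 without 1 library). The 32 falls were 6 and 4, and 17 with libraries linked by pairs within sampling noise merged (22 to 32). The 3 higher windows were 0 with DESeq2, 0 with thinning, 1 with merging, 0 at 5 Mb, 1 with borders shifted and 0 without called members (1 to 3 without 1 library). The 1 lower window was 0 with DESeq2, thinning, merging, 5 Mb windows, without called members or without the 3 libraries of lowest totals, 4 at 500 kb, 5 with borders shifted, 2 with all peaks and 4 without each window's highest member (0 to 2 without 1 library). Outside promoters, the 4 higher windows were 2 with thinning (3 to 5 without 1 library), and the 9 lower ones were 2 with DESeq2, 4 without the 3 libraries of lowest totals, 1 with thinning and 1 with merging (5 to 10). The KO minus WT difference in the chromosome 5 share of all in-peak counts (-0.0913 percentage points) and in the chromosome 5 share of non-promoter member counts (-0.154) was -0.0710 (exact permutation p = 0.114) and -0.128 (p = 0.0571) without the 3 libraries of lowest totals, and -0.0589 in promoters. Without 1 library these ranged from -0.103 to -0.0811 and from -0.164 to -0.137. Without the 3 libraries of lowest totals, too few assignments remain for the exact permutation test to give a p under 0.05. Neither of its p-values there can therefore show that a difference was lost. The non-promoter shares of the remaining libraries still did not overlap (highest KO 6.01% in Sample_2271_KO, lowest WT 6.11% in Sample_2274_WT). The difference in the promoter share of counts, -0.0253, ranged from -0.499 to 0.398 and reversed in 5 of 10 cases. The cause was not tested. Merging, the fit with non-nuclear peaks, all alternatives for windows outside promoters, the checks of the non-promoter share and the shares of promoter members were chosen after seeing the data. Depth limits single peaks: a member held a median of 10 counts in the shallowest library.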
